A study of Canis lupus familiaris with 20 samples.

Results

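The genes described here are 9 genes of DNA replication and cell cycle control: the mitotic kinase CDK1, the kinase inhibitor CDKN1A (p21), the sliding clamp PCNA and the 6 helicase subunits MCM2 to MCM7. They were measured in dog retina after injection of ciliary neurotrophic factor (CNTF) or buffer. Probes were taken where the array annotation gave the gene's name (16 probes) or its description named the gene (2 probes, both CDKN1A). These 18 probes are part of 43603 on the array, and 15 of them passed the filter on dim probes, as did 29466 probes in all, which cover 9997 named genes. For each gene the probe with the highest mean signal served as its main probe (probe 1), and all 9 main probes were above background on all 20 arrays.

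CNTF (12 µg) had been injected into the right eye and PBS into the left eye of 10 dogs, and retinas were taken 1 week later. The normal group held 5 male dogs, of which 4 carried a single copy of the CNGB3 missense mutation and dog 3 carried none. The mutant group held 5 dogs homozygous for that mutation, which disables the cone cyclic nucleotide-gated channel, and 3 of these were female. Each genotype thus gave 5 PBS and 5 CNTF arrays, 20 in all. Labelled ages were 8.9 weeks for normal dogs and 10.7 to 11.5 weeks for mutants, whereas the study description puts the dogs at about 11 months, so genotype cannot be told apart from labelled age.

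During replication, the origin recognition complex with CDC6 and CDT1 loads the MCM2 to MCM7 ring onto DNA in G1 phase, a step called licensing. In S phase the ring unwinds DNA with CDC45 and the GINS complex, and PCNA holds the polymerases on the template. CDK1 with its B cyclins drives entry into mitosis, and CDKN1A, a target of p53, inhibits cyclin-dependent kinases and binds PCNA. Most neurons of the mature retina have left the cell cycle, while microglia and, after injury, Müller glia can divide.

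The sequences of 9 probes show what was measured where probes of a gene differ or where a result turns on a single probe. Bases are 5′ to 3′ in the sense direction. For CDK1 the shown stretch runs up to the stop codon (capitals), and capitals also mark the stop codon of MCM2.
CDK1: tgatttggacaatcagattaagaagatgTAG
MCM2: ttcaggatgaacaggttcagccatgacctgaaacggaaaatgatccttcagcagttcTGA
CDKN1A probe 1: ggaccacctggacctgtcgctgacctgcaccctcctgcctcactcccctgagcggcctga
PCNA probe 2: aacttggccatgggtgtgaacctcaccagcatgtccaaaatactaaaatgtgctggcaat
MCM4 probe 1: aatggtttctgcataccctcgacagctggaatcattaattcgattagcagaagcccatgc
MCM5: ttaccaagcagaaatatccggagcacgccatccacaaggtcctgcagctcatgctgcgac
MCM6 probe 2: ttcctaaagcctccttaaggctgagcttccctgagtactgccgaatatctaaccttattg
The brightest MCM3 probes cross the same intron, and capitals mark the 6 bases at the junction that probe 2 holds and probe 1 lacks.
MCM3 probe 1: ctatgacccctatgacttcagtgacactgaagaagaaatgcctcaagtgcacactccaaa
MCM3 probe 2: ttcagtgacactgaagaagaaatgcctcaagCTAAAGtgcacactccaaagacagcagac

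Levels are given as log2 of the signal relative to the 75th percentile of the array, so 0 is the level of that percentile and a difference of 1 is a doubling. On single arrays 52 to 71.8% of probes passed the scanner's background test, with a 75th percentile of 291 to 592.5 intensity units, and the number of arrays limits the precision. Rod markers checked the tissue, since all 6 listed passed the filter and their summed signal was 186 to 655 times the 75th percentile on arrays where all were measured. Arrays lay on 5 slides of 4, and treatment followed slide closely. Slide 1 held PBS eyes of normal dogs 1 to 4, slide 2 PBS eyes of normal dog 5 and mutants 1 to 3, slide 3 PBS eyes of mutants 4 and 5 with CNTF eyes of normal dogs 1 and 2, slide 4 CNTF eyes of normal dogs 3 to 5 and mutant 1, and slide 5 CNTF eyes of mutants 2 to 5. Values with slide as a block (without the dog) and within slides are given beside the results for this reason. Every slide 3 difference sets CNTF eyes of normal dogs against PBS eyes of mutants, so it compares treatment and genotype together.

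The first question was how CNTF changed these genes in dogs with normal cones. All 9 main probes were called in normal dogs, 7 higher (PCNA and MCM2 to MCM7) and 2 lower (CDK1 and CDKN1A). CDKN1A was lower on its main probe only, and its probes 2 and 3 were called higher (1.99 and 1.47). Of all 29334 probes tested, 51.2% were called in this comparison, 23.6% as higher and 27.6% as lower. The median log2 difference was 0.89 over the members and -0.09 over all probes. In mutant dogs 5 of 9 were called, with PCNA, MCM3, MCM4 and MCM6 higher and CDK1 lower, where 28.9% of all probes were called, 11.6% as higher and 17.3% as lower. The median there was 0.34 over the members and -0.09 over all probes. When slide replaced the dog as the block, CDK1, MCM3 and MCM6 were called in normal dogs, where 3.91% of all probes were called. In mutants CDK1 and MCM4 were called under that block, where 2.72% of all probes were called. The MCM4 value there rests on the CNTF eye of mutant 1, described below. The eyes did not overlap between treatments for 7 of 9 members in normal dogs (30% of all probes) and for 4 of 9 in mutants (14.8% of all probes). In bulk retina fewer cells of a type and less RNA per cell cannot be told apart.

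**Figure D1:**
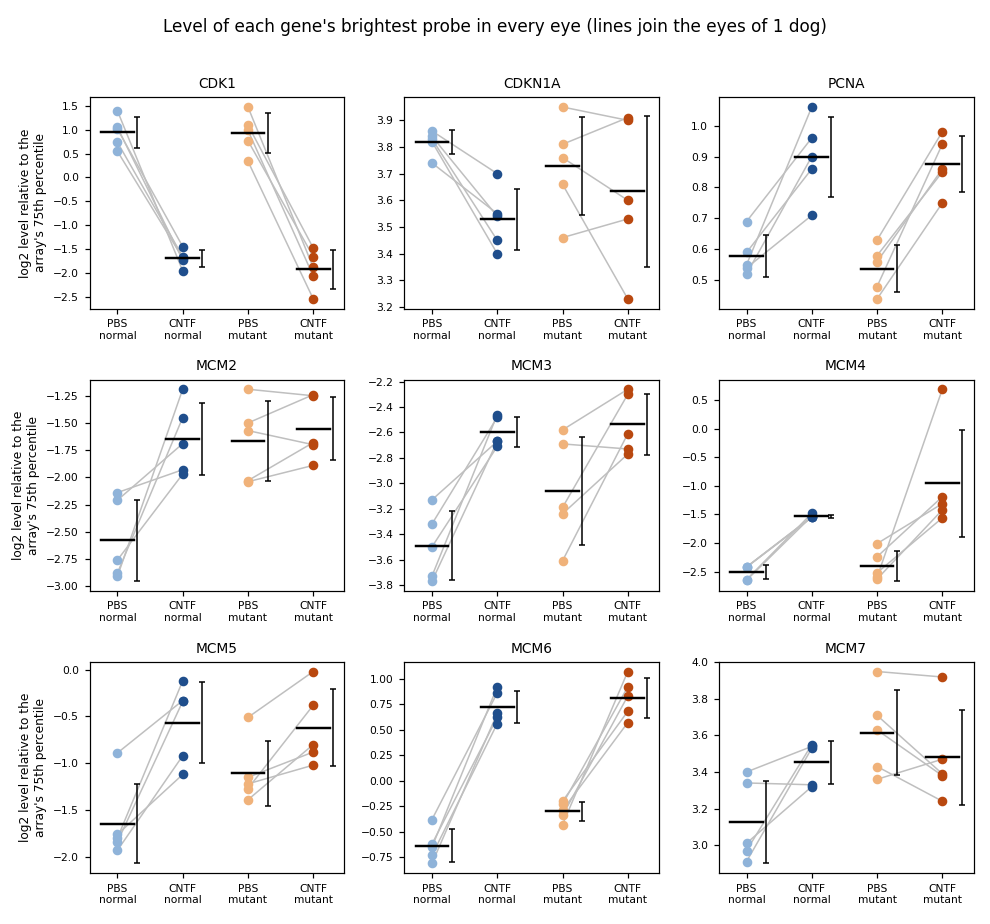
Level of each gene's brightest probe in every eye (vertical axis, log2 relative to the array's 75th percentile, with a separate scale in each panel), in PBS and CNTF eyes of normal and mutant dogs. Grey lines join the eyes of a dog, black bars are group means and whiskers are SD (n = 5). CDK1 is below -1.4 in all CNTF eyes and above 0.3 in all PBS eyes, MCM6 is separated the other way, and the PBS eyes of normal dogs have the lowest mean for MCM2 and MCM7.

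CDK1, the kinase of mitotic entry, had the largest difference among the members and the opposite direction to the helicase subunits. Its only probe lies at chr4:16104871-16104930 (canFam2, plus strand). In normal dogs 1 to 5 the PBS eyes stood at 0.55, 1.02, 1.05, 0.74 and 1.40 and the CNTF eyes at -1.69, -1.45, -1.73, -1.66 and -1.96. In mutants 1 to 5 the PBS eyes stood at 0.99, 0.34, 0.77, 1.10 and 1.48 and the CNTF eyes at -2.07, -2.55, -1.66, -1.48 and -1.89. Every CNTF eye lay below every PBS eye, in both genotypes. CDK1 fell 6.29-fold in normal dogs (-2.65 ± 0.17 SE, n = 5 dogs, limma adjusted p = 1.1e-06) and 7.28-fold in mutants (-2.86 ± 0.17, adjusted p = 9.59e-07). A slide block gave differences of -3.56 ± 0.47 (adjusted p = 0.000599) and -3.14 ± 0.47 (adjusted p = 0.00181). On slide 3, the CNTF eyes of normal dogs 1 and 2 lay 2.86 below the PBS eyes of mutants 4 and 5 (a log2 difference of -2.86), which compares treatment and genotype together. With the dog and the slide both as blocks, which leaves few residual degrees of freedom, the calls ended at adjusted p of 0.0816 and 0.0989, with differences of -3.44 ± 0.56 and -3.14 ± 0.56.

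The B cyclins and some other mitotic genes listed with CDK1 did not pass the filter, while 16 G2 and M phase genes did. CCNB1 and TOP2A, a B cyclin and the topoisomerase of chromosome condensation, were above background on 1 of 20 arrays each. The brightest CCNB2 probe was above background on 3 CNTF arrays of each genotype and on no PBS array. CDC25C, the phosphatase that activates CDK1, was above background on none.

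CDKN1A gave different answers with different probes. Probe 1 was taken because its description named the gene, while probes 2 and 3 carry the gene's name in the annotation. The mapped ones lie on the plus strand of chromosome 12. Probe 1 lies at chr12:8752234-8752293, probe 3 at chr12:8754940-8754999 and probe 2 at chr12:8755227-8755286, so that probes 3 and 2 start 2647 and 2934 bases past the end of probe 1. Probe 2 holds the letters AATAAA, the usual polyadenylation signal, and the GC content is 68.3% in probe 1 against 45% in probe 3 and 41.7% in probe 2. A further probe, from a dog WAF1 cDNA entry with no mapped position, was above background on no array.

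Probe 1, the brightest, had the smallest difference of the mapped CDKN1A probes. Probe 1 stood in normal dogs 1 to 5 at 3.74, 3.86, 3.83, 3.84 and 3.82 in PBS eyes and at 3.55, 3.70, 3.45, 3.54 and 3.40 in CNTF eyes. In mutants 1 to 5 it stood at 3.76, 3.46, 3.95, 3.66 and 3.81 in PBS eyes and at 3.60, 3.53, 3.90, 3.23 and 3.91 in CNTF eyes. The eyes of normal dogs were separated by a narrow margin and those of mutants overlapped. Probe 1 fell 1.22-fold in normal dogs (-0.29 ± 0.10, lower in 5 of 5 dogs, adjusted p = 0.0308) and differed by -0.09 ± 0.10 in mutants (adjusted p = 0.519). The call in normal dogs ended without normal dog 3, 4 or 5 (adjusted p = 0.0875, 0.0703 and 0.0942), and its value with slide as a block was -0.21 ± 0.33 (adjusted p = 0.749). It also ended with normexp background correction (-0.34, adjusted p = 0.136), with no filter (adjusted p = 0.0618) and without the replicate block (adjusted p = 0.0726), and with the mean of all CDKN1A probes past the filter the difference was 1.06 in normal dogs and 0.70 in mutants, called as higher. Quantile normalization and the deposited values gave probe 1 a larger fall in normal dogs (-0.52, adjusted p = 0.00552, and -0.55, adjusted p = 0.00432).

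The downstream CDKN1A probes rose in both genotypes. Probe 2 stood in normal dogs 1 to 5 at 2.10, 1.74, 1.40, 1.25 and 1.25 in PBS eyes and at 3.46, 3.17, 3.49, 3.40 and 4.14 in CNTF eyes. In mutants 1 to 5 it stood at 2.08, 3.14, 2.42, 2.76 and 1.99 in PBS eyes and at 3.40, 4.39, 3.64, 4.17 and 2.88 in CNTF eyes. All normal CNTF eyes lay above all normal PBS eyes, while in mutants the PBS eye of dog 2 lay above the CNTF eye of dog 5. Probe 2 rose 3.96-fold in normal dogs (1.99 ± 0.19, adjusted p = 1.92e-05) and 2.33-fold in mutants (1.22 ± 0.19, adjusted p = 0.000744), in 5 of 5 dogs of each. Probe 3 rose 2.78-fold (1.47 ± 0.15, adjusted p = 9.67e-05) and 2.12-fold (1.08 ± 0.20, adjusted p = 0.00327), with both eyes measured in 3 mutants, since a PBS and a CNTF spot were marked as outliers. Under a slide block, probe 2 differed by 2.24 ± 0.71 (adjusted p = 0.101) and 0.66 ± 0.71 (adjusted p = 0.855), and probe 3 by 1.98 ± 0.53 (adjusted p = 0.0568) and 1.01 ± 0.53 (adjusted p = 0.477). On slide 3 the CNTF eyes lay above the PBS eyes by 0.94 on probe 2 and 1.17 on probe 3, and probe 1 differed there by -0.11. No probe was saturated on any array, and which exon or transcript end each probe reads was not assigned here.

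**Figure D2:**
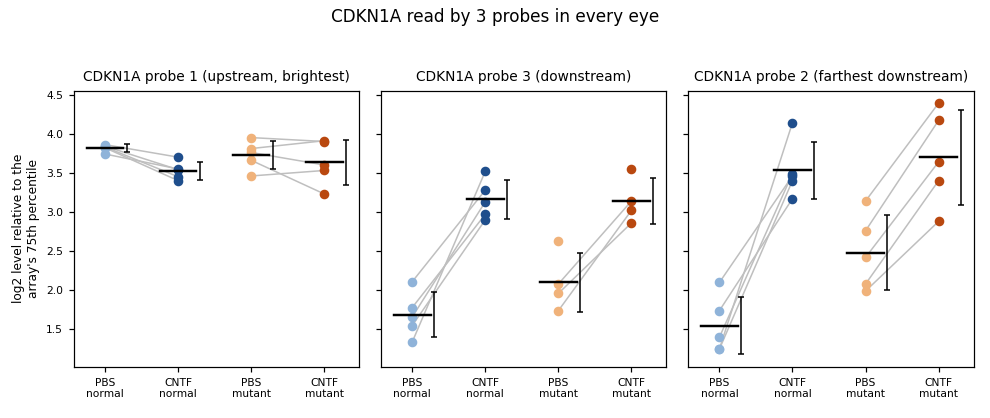
CDKN1A in every eye by probe, ordered from upstream to downstream on the plus strand, on a shared log2 scale relative to the array's 75th percentile. Grey lines join the eyes of a dog, bars are means and whiskers are SD (n = 5, and 4 in each mutant group for probe 3). Probe 1 lies between 3.23 and 3.95 in all eyes, while in every dog with both eyes measured the downstream probes are higher in the CNTF eye.

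PCNA, the clamp that tethers polymerases, differed little in size. Its main probe lies at chr24:19483321-19483380. In normal dogs 1 to 5 it stood at 0.59, 0.69, 0.52, 0.55 and 0.54 in PBS eyes and at 0.86, 0.96, 0.90, 1.06 and 0.71 in CNTF eyes. The mutant PBS eyes lay between 0.44 and 0.63 and their CNTF eyes between 0.75 and 0.98. PCNA rose 1.25-fold in normal dogs (0.32 ± 0.08, adjusted p = 0.00882) and 1.26-fold in mutants (0.34 ± 0.08, adjusted p = 0.0111), in all 5 dogs of each, with no overlap between treatments. The second probe, which spans an intron of 1060 bases at chr24:19476715-19477834 and was dimmer, differed by -0.05 ± 0.11 (adjusted p = 0.684) and 0.15 ± 0.11 (adjusted p = 0.335). PCNA was not called with slide as a block (0.34 ± 0.24, adjusted p = 0.43, and 0.31 ± 0.24, adjusted p = 0.724), with normexp (0.29, adjusted p = 0.149, and 0.22, adjusted p = 0.262) or, in normal dogs, with the mean of both probes (0.13, adjusted p = 0.186).

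**Figure D3:**
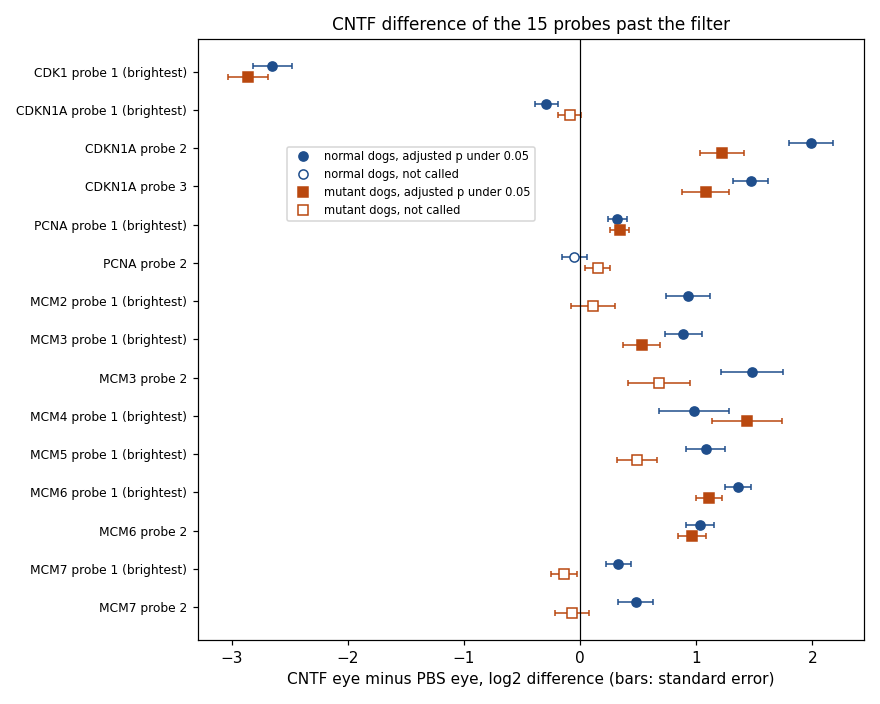
CNTF eye minus PBS eye for the 15 member probes past the filter (horizontal axis, log2 difference with standard error), in normal dogs (blue circles) and mutant dogs (orange squares), filled where the adjusted p was under 0.05. CDK1 lies near -2.7 in both genotypes, the probes of CDKN1A and of PCNA disagree among themselves, and the MCM values of mutants lie at or left of those of normal dogs except for MCM4. The dimmer MCM3 probe was below background in all PBS eyes of normal dogs. Its point in normal dogs is therefore a description with no test, and its fill does not mark a tested rise.

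All 6 helicase subunits rose in normal dogs, where 23.6% of all probes were called higher. MCM3, MCM4 and MCM6 rose in mutants, where 11.6% of all probes were called higher. The differences in normal dogs ran from 0.33 (MCM7) to 1.36 (MCM6), with a median of 0.96, and in mutants from -0.14 (MCM7) to 1.44 (MCM4), with a median of 0.51. The eyes did not overlap between treatments for 4 of the 6 in normal dogs (30% of all probes) and for 2 in mutants (14.8% of all probes).

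MCM6, a subunit of the helicase core, rose in every dog with no overlap between treatments. Its main probe lies at chr19:41646855-41646914 on the minus strand, and probe 2 lies 5519 bases upstream in transcript direction, at chr19:41652433-41652492. In normal dogs 1 to 5 the main probe stood at -0.38, -0.62, -0.65, -0.73 and -0.81 in PBS eyes and at 0.86, 0.62, 0.92, 0.56 and 0.66 in CNTF eyes. In mutants it stood at -0.29, -0.23, -0.34, -0.43 and -0.20 in PBS eyes and at 0.57, 0.92, 0.83, 1.07 and 0.68 in CNTF eyes. All PBS eyes lay below 0 and all CNTF eyes above it. MCM6 rose 2.57-fold (1.36 ± 0.11, adjusted p = 4.4e-06) and 2.16-fold (1.11 ± 0.11, adjusted p = 2.3e-05). Probe 2 rose 2.04-fold (1.03 ± 0.12) and 1.94-fold (0.96 ± 0.12), so that both probes agree in direction and call. A slide block gave 1.57 ± 0.28 (adjusted p = 0.00474) and 0.91 ± 0.28 (adjusted p = 0.116), and on slide 3 the difference was 1.05.

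MCM4, which pairs with MCM6 and MCM7 in the core of the helicase, held an array that stood apart. Its main probe lies at chr29:3260887-3260946. In normal dogs 1 to 5 it stood at -2.65, -2.42, -2.42, -2.64 and -2.42 in PBS eyes and at -1.53, -1.54, -1.55, -1.48 and -1.55 in CNTF eyes. In mutants it stood at -2.60, -2.01, -2.52, -2.63 and -2.24 in PBS eyes and at 0.69, -1.31, -1.56, -1.42 and -1.19 in CNTF eyes. The CNTF eye of mutant 1 alone lay above 0, and without that eye the CNTF eyes of both genotypes lay between -1.56 and -1.19. MCM4 rose 1.97-fold in normal dogs (0.98 ± 0.30, adjusted p = 0.018) and 2.72-fold in mutants (1.44 ± 0.30, adjusted p = 0.00391), and without mutant 1 the mutant difference was 0.98 ± 0.11 (adjusted p = 0.000176). Without normal dog 4 the difference in normal dogs was 0.93 and just missed the call (adjusted p = 0.0501). The fit shares its residual variance between the genotypes, so the eye of mutant 1 also enters the standard error in normal dogs. Single normal dogs differed by 0.87 to 1.16. A slide block gave 0.94 ± 0.31 (adjusted p = 0.121) in normal dogs and 3.11 ± 0.31 (adjusted p = 4.8e-05) in mutants, where the eye of mutant 1 is the only mutant array on slide 4. On slide 3 the difference was 0.90. A second MCM4 probe was above background on 6 of 20 arrays and did not pass the filter. With no filter it differed by 0.40 ± 0.36 (adjusted p = 0.404) and 0.69 ± 0.36 (adjusted p = 0.261).

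MCM3 was read across an exon junction by 2 probes that differ in 6 bases. The intron is 427 bases long in probe 1 and 421 in probe 2 (chr12:22927867-22928353 and chr12:22927857-22928337, minus strand), so the letters CTAAAG shown in capitals belong to an exon in the probe 2 form and to the intron in the probe 1 form. Probe 1 stood in normal dogs 1 to 5 at -3.32, -3.13, -3.73, -3.50 and -3.77 in PBS eyes and at -2.48, -2.67, -2.46, -2.71 and -2.67 in CNTF eyes. In mutants it stood at -3.24, -2.58, -2.69, -3.19 and -3.61 in PBS eyes and at -2.77, -2.26, -2.73, -2.30 and -2.61 in CNTF eyes. The normal eyes were separated by treatment, and the mutant eyes overlapped because the PBS eyes of mutants 2 and 3 were as high as CNTF eyes. Probe 1 rose 1.85-fold in normal dogs (0.89 ± 0.16, adjusted p = 0.00121) and 1.44-fold in mutants (0.53 ± 0.16, 4 of 5 dogs, adjusted p = 0.029). The mutant call ended without mutant 1, 4 or 5 (adjusted p = 0.0586, 0.108 and 0.111). It was not called with normexp in either genotype (adjusted p = 0.0995 and 0.12), nor in mutants with no filter (adjusted p = 0.0593). Its value with slide as a block was 1.76 ± 0.39 (adjusted p = 0.0176) and 0.67 ± 0.39 (adjusted p = 0.538), and on slide 3 it was 0.82.

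MCM3 probe 2 was above background on no PBS array of normal dogs and on 4 of 5 arrays in each other group, through which it passed the filter. It was at least 2.32-fold higher in the CNTF than in the PBS eyes of normal dogs (means of -3.55 and -5.03). This fold is a description with no test, since the normal PBS eyes were all below background. In mutants it differed by 0.68 ± 0.27 (adjusted p = 0.0804). Here an "at least" fold is set, on each array, against the lowest signal well above background or the probe's own signal, whichever is higher. The background test is made per spot, and probe 2 failed it at -3.73 in the PBS eye of mutant 3. Such folds are therefore approximate lower bounds. The remaining MCM3 probe was above background on 2 of 20 arrays.

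MCM2 and MCM5, subunits at the gate through which the ring opens, rose in normal dogs and were not called in mutants. MCM2 (chr20:4706513-4706572) stood in normal dogs 1 to 5 at -2.21, -2.14, -2.88, -2.76 and -2.91 in PBS eyes and at -1.69, -1.93, -1.45, -1.97 and -1.19 in CNTF eyes. In mutants it stood at -2.03, -1.19, -1.57, -1.50 and -2.04 in PBS eyes and at -1.68, -1.25, -1.70, -1.24 and -1.89 in CNTF eyes. Only the PBS eyes of normal dogs lay apart, and the mutant eyes covered the same range under both treatments. MCM2 rose 1.91-fold in normal dogs (0.93 ± 0.19, adjusted p = 0.00283) and differed by 0.11 ± 0.19 in mutants (adjusted p = 0.71). A slide block gave 1.27 ± 0.53 (adjusted p = 0.208) in normal dogs and -0.19 ± 0.53 (adjusted p = 0.961) in mutants, and on slide 3 the difference was -0.04.

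MCM5 (chr10:31792789-31793773, minus strand, across an intron of 925 bases) lay in the PBS eyes of normal dogs 1 to 5 at -0.89, -1.76, -1.84, -1.93 and -1.80, with dog 1 well above the others. Their CNTF eyes lay at -0.33, -1.12, -0.34, -0.92 and -0.12, so the treatments overlapped through the PBS eye of dog 1. MCM5 rose 2.11-fold (1.08 ± 0.17, 5 of 5 dogs, adjusted p = 0.000597). In mutants the PBS eyes ran from -1.39 to -0.51 and the CNTF eyes from -1.02 to -0.02, a difference of 0.49 ± 0.17 that was positive in 5 of 5 dogs and just missed the call (adjusted p = 0.0535). For MCM5 a slide block gave 1.30 ± 0.64 (adjusted p = 0.279) and 0.17 ± 0.64 (adjusted p = 0.971), and on slide 3 the difference was 0.52.

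MCM7, a core helicase subunit, had the smallest difference of the ring in normal dogs. Its probes overlap by 56 bases (the main one at chr6:12506523-12506582) and both hold AATAAA. The main probe lay between 2.91 and 3.40 in normal PBS eyes, 3.32 and 3.55 in normal CNTF eyes, 3.36 and 3.95 in mutant PBS eyes, and 3.24 and 3.92 in mutant CNTF eyes. It rose 1.26-fold in normal dogs (0.33 ± 0.11, 4 of 5 dogs, adjusted p = 0.0329) and differed by -0.14 ± 0.11 in mutants (adjusted p = 0.399). The second probe gave 0.48 ± 0.15 (adjusted p = 0.0195) and -0.07 ± 0.15 (adjusted p = 0.766). The call of the main probe ended without normal dog 3, 4 or 5 (adjusted p = 0.116, 0.0693 and 0.12), with normexp (adjusted p = 0.307), with no filter (adjusted p = 0.0624) and without the replicate block (adjusted p = 0.0743). It also ended under quantile normalization, where the value was 0.13 ± 0.08 (adjusted p = 0.202), and in the authors' deposited log2 values, where it was 0.11 ± 0.08 (adjusted p = 0.263). Under a slide block the differences were 0.61 ± 0.38 (adjusted p = 0.381) in normal dogs and -0.14 ± 0.38 in mutants, and on slide 3 the difference was -0.14.

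**Figure D4:**
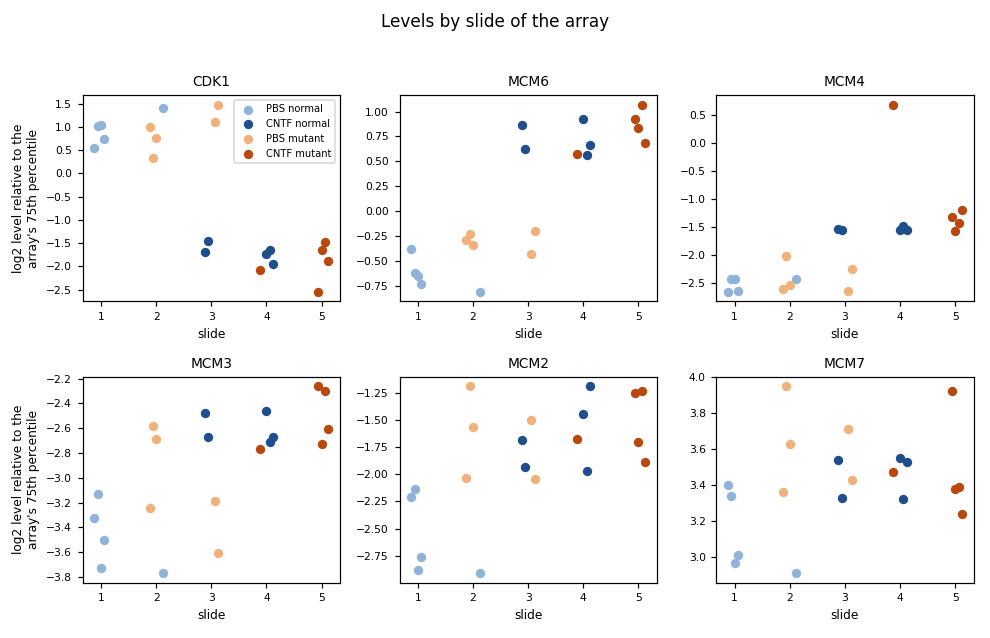
Levels of CDK1, MCM6, MCM4, MCM3, MCM2 and MCM7 (vertical axis, log2 relative to the array's 75th percentile) by slide (horizontal axis, slides 1 to 5), coloured by group, each point an eye. On slide 3, the only slide with both treatments, the CNTF eyes are of normal dogs and the PBS eyes of mutants, so treatment and genotype differ together. There CDK1 is 2.86 lower and MCM6 1.05 higher in the CNTF eyes, while MCM2 and MCM7 differ by -0.04 and -0.14.

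The next question was whether the mutation altered these genes in PBS eyes. No member was called (0 of 9, adjusted p from 0.0953 to 0.956, limma), where 0.0272% of all probes were called. An unadjusted p under 0.05 was found for 4 of 9 members and for 10183 of all 29422 probes. All 6 helicase subunits lay higher in mutant PBS eyes, with a median difference of 0.46 against 0.01 over all probes. MCM2 differed by 0.91 ± 0.22 (adjusted p = 0.0953) and was the only member whose groups did not overlap (5.4% of all probes). MCM7 differed by 0.49 ± 0.15 (adjusted p = 0.0953), MCM5 by 0.54 ± 0.23 (adjusted p = 0.127), MCM6 by 0.34 ± 0.12 (adjusted p = 0.0967), MCM3 by 0.43 ± 0.21 (adjusted p = 0.168) and MCM4 by 0.11 ± 0.14 (adjusted p = 0.584). The value of MCM4 turned to -0.10 with sex as a covariate. CDK1, PCNA and CDKN1A probe 1 differed by -0.02 ± 0.22, -0.04 ± 0.10 and -0.09 ± 0.12, and CDKN1A probe 2 by 0.93 ± 0.25 (adjusted p = 0.0953).

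This comparison rested on the PBS array of normal dog 1. Without normal dog 1, 6292 probes were called (21.4%), against 8 with it, and 4 members were called higher in mutants. These were MCM2 (1.01, adjusted p = 0.0359), MCM5 (0.72, adjusted p = 0.036), MCM6 (0.40, adjusted p = 0.0374) and MCM7 (0.56, adjusted p = 0.0385). On slide 2, where normal dog 5 is the only normal array beside mutants 1 to 3, mutants lay higher by 1.32 for MCM2, 0.94 for MCM3, 0.78 for MCM5, 0.74 for MCM7, 0.52 for MCM6 and 0.04 for MCM4, and CDK1 differed by -0.70. No member was called with slide as a block. The normal dogs were all male and labelled younger than the mutants, and with sex as a covariate no member was called either.

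In CNTF eyes the genotypes lay close together. No member was called (0 of 9, every adjusted p rounding to 1, limma), 0.00681% of all probes were called, and no member had an unadjusted p under 0.05 or groups that did not overlap (1.09% of all probes). Differences ran from -0.23 ± 0.19 (CDK1) to 0.57 ± 0.37 (MCM4), and for MCM4 the difference was 0.16 without mutant 1. The other MCM differences lay between -0.05 and 0.09. A slide block put MCM4 at 2.22 ± 0.24 (adjusted p = 8.5e-05, called), where mutant 1 is the only mutant array on slide 4.

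Whether CNTF acted differently in mutants was tested as the difference of the CNTF effects. No member was called (0 of 9, lowest adjusted p = 0.103) and no probe of 29334 was called by limma, although 10162 probes and 3 members had an unadjusted p under 0.05. Those members were MCM2 (-0.82 ± 0.27, adjusted p = 0.103), MCM5 (-0.59 ± 0.24, adjusted p = 0.122) and MCM7 (-0.47 ± 0.16, adjusted p = 0.103), all with a smaller value in mutants. CDKN1A probe 2 differed by -0.77 ± 0.27 (adjusted p = 0.104). CDK1 differed by -0.21 ± 0.24 (adjusted p = 0.543), PCNA by 0.02 ± 0.12 and MCM6 by -0.25 ± 0.15. So the calls of MCM2, MCM5 and MCM7 in normal dogs alone do not show that the genotypes differ. The difference for MCM4 was 0.46 ± 0.42, it rounded to 0.00 without mutant 1, and it was called with slide as a block (2.18, adjusted p = 0.00588), which again rests on mutant 1.

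The other genes of the pathway were given by 8 lists of 113 genes, of which 83 had a probe past the filter. Of these, 25 rose and 22 fell in normal dogs, and 12 rose and 12 fell in mutants. Over all 9932 named genes tested, 28.5% rose and 23.1% fell in normal dogs, and 13.8% rose and 16.5% fell in mutants. A further 22 list genes were above background on 0 to 6 arrays with their best probe, among them CDC6, CLSPN, RRM2 and CDC25A on none.

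The licensing list holds the loaders of the MCM ring and also GMNN, CDC7 and DBF4. Its measured genes fell or were not called in normal dogs, with 0 of 9 higher and 4 lower (median -0.43, against 0.01 over all named genes). In mutants 1 was higher and 3 were lower (median -0.16, against -0.06). ORC1, the largest subunit of the origin recognition complex, fell in both genotypes (-1.45 ± 0.11, adjusted p = 4.15e-06, and -1.97 ± 0.11, adjusted p = 7.9e-07). ORC4 fell in normal dogs (-0.43 ± 0.10, adjusted p = 0.00447), while another ORC4 probe stood at -0.08. ORC2 fell in normal dogs (-0.29 ± 0.08, adjusted p = 0.0147) and in mutants (-0.40 ± 0.08, adjusted p = 0.00418). GMNN, geminin, which blocks CDT1 and so prevents relicensing, rose in mutants (0.64 ± 0.18, adjusted p = 0.0189).

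Of 6 measured genes of helicase activation and MCM relatives, 2 rose and 2 fell in normal dogs, and 2 rose and 1 fell in mutants. MCMBP, a binding partner of the MCM proteins, rose by 0.97 ± 0.09 (adjusted p = 1.88e-05) and 0.73 ± 0.09 (adjusted p = 0.000177). Within the GINS complex, GINS4 rose by 0.85 ± 0.15 and 0.61 ± 0.15, while GINS2 differed by -1.10 ± 0.16 and -1.56 ± 0.16 (adjusted p = 0.000358 and 3.46e-05). GINS1 fell in normal dogs (-0.80 ± 0.16, adjusted p = 0.00269). Subunits of this complex thus moved in opposite directions.

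Among 23 genes of the polymerases, the clamp loader and strand processing, 10 rose and 5 fell in normal dogs, and 2 rose and 3 fell in mutants. RNASEH2A, the catalytic subunit of an enzyme that removes RNA from DNA, rose by 0.81 ± 0.11 (adjusted p = 0.00025) and 0.38 ± 0.11 (adjusted p = 0.0278). POLE4, a small subunit of polymerase epsilon, rose in normal dogs (0.69 ± 0.14, adjusted p = 0.0027), and RFC4, of the clamp loader, in mutants (0.32 ± 0.10, adjusted p = 0.0318). PRIM1, the catalytic primase subunit, fell in normal dogs (-1.62 ± 0.28, adjusted p = 0.00112) and in mutants (-0.96 ± 0.28, adjusted p = 0.0269). POLE2, another epsilon subunit, fell in normal dogs (-0.77 ± 0.16, adjusted p = 0.00307) and stood at 0.41 ± 0.16 in mutants (adjusted p = 0.0813). LIG1, the ligase that joins Okazaki fragments, fell in normal dogs (-0.32 ± 0.11, adjusted p = 0.0321) and in mutants (-0.72 ± 0.11, adjusted p = 0.000572). So did POLD1, the catalytic subunit of polymerase delta (-0.29 ± 0.10, adjusted p = 0.0341, and -0.59 ± 0.10, adjusted p = 0.00124).

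Of 4 measured genes of nucleotide supply, TYMS, thymidylate synthase, rose by 0.61 ± 0.10 and 0.58 ± 0.10 (adjusted p = 0.000553 and 0.000941), and RRM1 rose in normal dogs (0.34 ± 0.10, adjusted p = 0.0128). Another RRM1 probe stood at 0.19 in normal dogs and was not called. TK1, the thymidine kinase of dividing cells, depended on the probe. Its brightest probe fell (-0.36 ± 0.11, adjusted p = 0.0162, and -0.57 ± 0.11, adjusted p = 0.00212). The other TK1 probe was above background on no PBS array and on all CNTF arrays, and lay at least 5.02-fold higher in the CNTF eyes of normal dogs and at least 6.92-fold higher in those of mutants. It passed the filter only through the CNTF eyes, so these folds are a description with no test.

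Among 11 G1 and S phase genes, 4 rose and 1 fell in normal dogs, and 1 rose in mutants. CCNE1, cyclin E1, which starts S phase with CDK2, rose by 1.22 ± 0.13 (adjusted p = 3.58e-05) and 0.53 ± 0.13 (adjusted p = 0.0103), and CCND3, cyclin D3, rose in normal dogs (1.05 ± 0.15, adjusted p = 0.000356). Another CCND3 probe stood at 0.22 in normal dogs and was not called. CCNE2, cyclin E2, fell in normal dogs (-0.86 ± 0.23, adjusted p = 0.0113). Among 16 G2 and M phase genes, 2 rose and 3 fell in normal dogs, and 1 rose and 2 fell in mutants. UBE2C, a ubiquitin-conjugating enzyme of mitotic exit, was below background on all PBS arrays and at least 2.56-fold higher in CNTF eyes of normal dogs and at least 2.04-fold in those of mutants. It passed the filter through the CNTF eyes alone and so had to differ, and without it 1 gene of this list rose in normal dogs and 0 in mutants, and 24 and 11 genes of all lists rose. CKS1B, a small CDK-binding protein, rose in normal dogs (0.63 ± 0.13, adjusted p = 0.00261). WEE1, the kinase that restrains CDK1, fell in both genotypes (-0.52 ± 0.11, adjusted p = 0.0031, and -0.37 ± 0.11, adjusted p = 0.0288), BUB1, of the spindle checkpoint, fell in normal dogs (-0.28 ± 0.08) and AURKB, a mitotic kinase, in mutants (-0.37 ± 0.11). BIRC5, survivin, had a brighter probe at 0.11 ± 0.12 and a dimmer one that rose by 1.56 ± 0.16 in normal dogs, and in mutants these stood at -0.09 ± 0.12 and 1.16 ± 0.17 (adjusted p = 0.0008). PRIM2, the other primase subunit, had a brighter probe at 0.17 ± 0.16 and a dimmer one at -0.80 ± 0.15 (adjusted p = 0.00188) in normal dogs, and stood at -0.29 and -0.17 in mutants. BIRC5, PRIM2 and the second TK1 probe were named because probes of the gene disagreed, and so after the values were seen.

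Of 3 measured CDK inhibitors besides CDKN1A, CDKN2D (p19) rose by 0.99 ± 0.12 (adjusted p = 9.76e-05) and 0.77 ± 0.12 (adjusted p = 0.000641). CDKN2C (p18) fell (-0.51 ± 0.15, adjusted p = 0.0166, and -0.63 ± 0.15, adjusted p = 0.0094), and CDKN1B (p27) fell in normal dogs (-0.31 ± 0.11, adjusted p = 0.0354). Among 11 measured genes of the list of p53 and its targets, 4 rose and 4 fell in normal dogs, and 3 rose and 1 fell in mutants. That list also holds related genes that are not simply p53 targets, among them GADD45B and MDM4. GADD45B rose by 2.0 ± 0.12 and 1.65 ± 0.12 (adjusted p = 8.02e-07 and 3.55e-06), and BTG2, an antiproliferative gene, by 2.06 ± 0.15 and 1.48 ± 0.15 (adjusted p = 2.34e-06 and 3.16e-05). GADD45A, its relative in the response to DNA damage, fell (-0.91 ± 0.13, adjusted p = 0.000245, and -1.12 ± 0.13, adjusted p = 6.92e-05), and MDM4, an inhibitor of p53, fell in normal dogs (-0.92 ± 0.18, adjusted p = 0.00176).

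**Figure D5:**
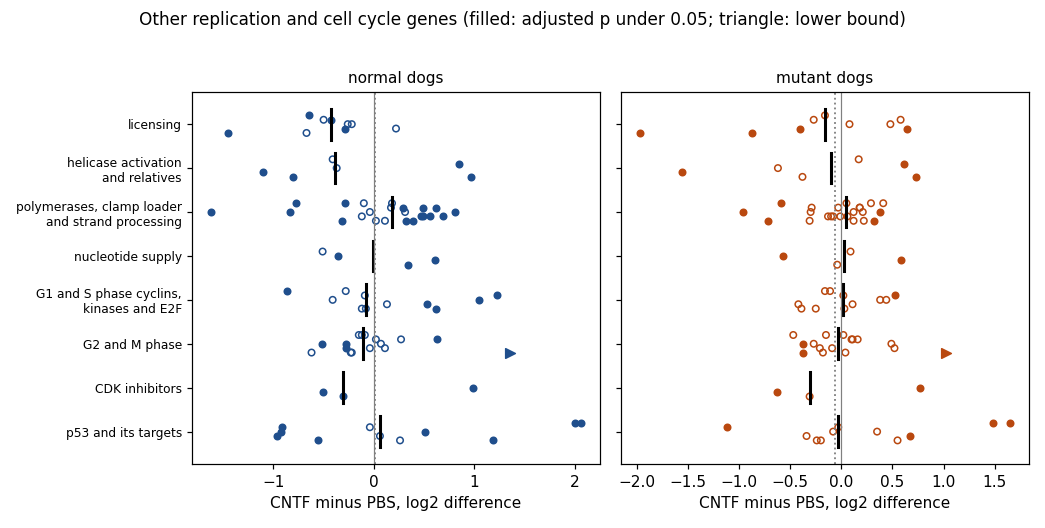
CNTF minus PBS log2 difference (horizontal axis) of each list gene past the filter, by list (vertical axis), in normal dogs (left) and mutants (right). Filled points had an adjusted p under 0.05, black bars are list medians and the dotted line is the median of all named genes (0.01 and -0.06). The licensing list has no called rise in normal dogs, and among genes measured under both treatments GADD45B and BTG2 lie farthest right. UBE2C is drawn as a triangle at its approximate lower bound.

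Genes most like the members over the 20 arrays were not replication genes. Closest to the mean of the standardised MCM levels were UQCRFS1 (Pearson r = 0.99), CFL1 (0.98) and HMOX2 (0.98), of 9349 genes compared. Closest to CDK1 were PLA2R1, SYNE1 and ZDHHC6 (r = 0.98 each), and closest to CDKN1A probe 1 were PNPLA2 (0.95), PEX6 (0.94) and MYO9A (0.94). The points share treatment, slide and the scaling by the 75th percentile, so these values are descriptions. Among the 15 pairs of MCM genes r ran from 0.20 to 0.87 over all arrays and from -0.41 to 0.84 after group means were removed (median 0.49).

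Markers of several cell types moved with the same treatment. Over all named genes, 28.5% rose and 23.1% fell in normal dogs, and 13.8% rose and 16.5% fell in mutants. All 8 microglia and macrophage markers rose in normal dogs and 7 of 8 in mutants, with median differences of 3.23 and 2.99. Their summed signal, in units of the 75th percentile, ran from 4.75 to 6.3 in PBS and from 23.3 to 36.4 in CNTF eyes of normal dogs, and from 6.79 to 9.85 and from 24.5 to 40.2 in mutants. Of 5 T cell markers, 1 of 3 measured was called higher in normal dogs (CD3D) and 2 in mutants (CD3D and CD8A). CD3D was above background on 1 PBS array in all. It passed the filter through the CNTF eyes alone, so its rise is a description with no test. The summed signal of the measured T cell markers was 0.189 to 0.368 in PBS eyes and 0.364 to 0.828 in CNTF eyes. CD2 and CD3G were above background on 6 and 3 of 20 arrays. Of 3 measured B and plasma cell markers, 0 rose and 2 fell in both genotypes (medians -0.36 and -0.40), and MS4A1 was above background on 0 of 20 arrays. Of 5 Müller glia markers, 3 rose and 1 fell in normal dogs, and 1 rose and 2 fell in mutants, with a summed signal of 89.4 to 176 in PBS and 128 to 244 in CNTF eyes. All 5 cone markers fell in normal dogs and 4 of 5 in mutants, with a summed signal of 68.9 to 99.7 in PBS and 20.7 to 34.9 in CNTF eyes. Of 6 rod markers, 1 rose and 2 fell in normal dogs, and 0 rose and 5 fell in mutants. Of 4 bipolar cell markers, 0 rose and 3 fell in each genotype. Of 3 measured amacrine cell markers 0 rose, while 3 fell in normal dogs and 2 in mutants. Of 4 measured ganglion cell markers, 3 rose and 1 fell in each genotype. The 2 measured astrocyte markers rose in each. The part of any of these cell types in the changes of CDK1, PCNA, CDKN1A or the MCM genes was not tested.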

How the data were processed

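The 9 genes, the gene lists and the tests were chosen with earlier results of these data known. Signal intensity per spot was deposited as array text files. Per the file headers it came from Agilent Feature Extraction 9.5.3.1, with background subtracted and positions in canFam2. The authors' deposited matrix of log2 values served only as an alternative. The submitters' processing notes name Partek 6.4. Other marks from the deposited files (control, outlier, background, saturation) were used as flags.

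Control spots (1417 per array) and outlier spots were removed, spots of a probe were averaged, and each array's 75th percentile was subtracted from log2 signal. A probe was kept if 4 of 5 arrays in any group had it above background, and tested with at least 3 arrays a group. limma 3.58.1 (R 4.3.3) fitted a CNTF term per genotype with the dog as a block over 20 arrays. Genotypes were compared on 10 arrays without covariates. P-values are two-sided with Benjamini-Hochberg adjustment over all probes, called under 0.05. Eyes of a genotype with the same replicate number in their titles were taken as the eyes of 1 dog, because both eyes of each dog were injected. The dog block and the counts of dogs rest on this. The correlation of paired eyes' deviations over all probes was -0.15 to 0.29 in normal dogs and 0.192 to 0.689 in mutants. Over the 500 most variable probes it was 0.173 to 0.734. In simulated data with known changes, 77% of changes of 1 and 92% of changes of 2 (log2) in normal dogs were recovered, 52% and 81% for the difference of CNTF effects, 50% and 95% between genotypes in PBS eyes, and 66% and 98% in CNTF eyes. Few of the 27888 simulated probes were changed and their noise was independent, whereas 51.2% of measured probes were called in normal dogs. The rates may therefore not hold for the measured data. Per list, direction and CNTF comparison, the 2 called genes with the lowest adjusted p are named, and 3 genes most correlated with the MCM mean, CDK1 and CDKN1A. Gene names came from a table of the assembly UU_Cfam_GSD_1.0 or the array's descriptions, and each other gene is represented by its brightest probe past the filter. Figures used Python 3.11.15 with matplotlib 3.10.9. Background correction (normexp, offset 50), normalization, filters, slide, dog block, sex, left-out dogs and averaging of probes were varied.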

Additional observations from a re-analysis of the deposited data

Results flagged for a closer look

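In 36 sets of 5 eyes (9 members in 4 groups) a single eye lay far from the others, by Dixon's gap test, in 3, where chance gives about 1 in 20. The CNTF eye of mutant 1 had MCM4 at 0.69, against -1.56 to -1.19 in the other mutant CNTF eyes. The PBS eye of normal dog 1 had MCM5 at -0.89, against -1.93 to -1.76 in the other normal PBS eyes. The PBS eye of mutant 2 had MCM5 at -0.51, against -1.39 to -1.15 in the other mutant PBS eyes.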

How the results depend on the processing

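Of 765 values of single members under alternatives, 710 kept their side of the threshold, 46 lost the call, 7 gained it and 2 reversed. A further limit is that 44 of the 710, uncalled under both settings, changed sign. The reversals were CDKN1A with the mean of its probes, at 1.06 in normal dogs and 0.70 in mutants. With normexp background correction 5758 and 3297 probes and 5 and 3 members were called in normal and mutant dogs, with 61.1% and 56% of calls higher (46% and 40.2% in the main setting) and all-probe medians of 0.09 and 0.17. With slide as a block 1146 (3.91%) and 795 (2.72%) probes and 3 and 2 members were called, with 75.2% and 62.8% of calls higher. With the replicate block and slide, 0 and 47 (0.161%) probes and 0 and 1 members were called. Without the replicate block 11518 and 6664 probes and 7 and 5 members were called. For the difference of CNTF effects, slide as a block gave 69 probes and 1 member, and the replicate block and slide 45 probes. In PBS eyes the genotype comparison called 2 probes with normexp, 1 with quantile normalization, 1 with deposited values, 4 with no filter, 2 with slide as a block, 4 with sex as a covariate and 60 with all 20 arrays in the fit. In CNTF eyes it called 0 probes with normexp, quantile normalization, deposited values and both other filters, 190 (and 1 member) with slide as a block, 1 with sex as a covariate and 18 with all 20 arrays. Leaving out a dog gave 10950 to 14809 probes and 6 to 9 members in normal dogs, 6382 to 7211 probes and 4 to 5 members in mutants, 0 to 4 probes and 0 members for the difference, 1 to 6292 probes and 0 to 4 members in PBS eyes, and 0 to 60 probes and 0 members in CNTF eyes. The causes were not tested. Signal over background limits MCM3 probe 2, TK1 and UBE2C.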
